A study of Mus musculus with 16 samples.

Results

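The genes described here build and carry out the inflammasome response, and their RNA was counted in sorted mouse Paneth cells. They were chosen by name: the sensors Nlrp6 and Aim2, the adaptor Pycard, the inflammatory caspases Casp1 and Casp4, the pore-forming gasdermin Gsdmd and the cytokine Il18. These are 7 of the 55414 genes in the counts table. Of the 7, 6 passed the filter on low counts and entered the tests over 11809 genes, and Il18 did not. No executioner caspase is among the 7, and Casp6 is described with a wider list of 66 genes of the pathway, of which 38 were tested.

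Paneth cells sit at the base of the small intestinal crypts and secrete antimicrobial peptides. All 16 libraries came from the small intestine of mice, which the methods of the study give as C57BL/6J, and the sources used here do not give the age, dose or route. The study's methods state that its datasets hold animals of both sexes, without the sex behind each library. Every mouse was injected with PBS (the vehicle) or DEX, was injected again 1 h later with PBS or with TNF (tumour necrosis factor), and was sampled 3 h after that. DEX commonly stands for dexamethasone, a synthetic glucocorticoid, but no source used here writes the name in full. The 4 groups of 4 libraries are written with both injections in order: PBS+PBS, DEX+PBS, PBS+TNF and DEX+TNF. No allele or transgene is given, and the libraries are described as biological replicates. In bulk RNA, fewer cells of a type and less RNA per cell cannot be told apart.

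Inflammasomes are protein assemblies that form in the cytosol when a sensor meets a microbial or danger signal. A sensor such as NLRP6 or AIM2 recruits ASC, the adaptor encoded by Pycard, and ASC recruits and activates caspase-1, the product of Casp1. Caspase-1 cleaves pro-IL-18 to its active form and cuts gasdermin D, whose freed part forms pores in the plasma membrane and can end in a lytic death called pyroptosis. Caspase-11, encoded in the mouse by Casp4, binds bacterial lipopolysaccharide and cuts gasdermin D without such an assembly. In the intestinal epithelium these genes are known for roles in the defence against bacteria and in mucus release.

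All 7 are protein-coding genes, placed here on the GRCm39 assembly. Casp1 (ENSMUSG00000025888) lies at chr9:5298508-5307290 and Casp4 (ENSMUSG00000033538) next to it at chr9:5308828-5336783, both on the plus strand with 1537 bases between them. Gsdmd (ENSMUSG00000022575) lies at chr15:75733974-75739257 on the plus strand. Pycard (ENSMUSG00000030793) lies at chr7:127588558-127593039 on the minus strand and Nlrp6 (ENSMUSG00000038745) at chr7:140500815-140509105 on the plus strand. Aim2 (ENSMUSG00000037860) spans chr1:173178445-173293930 and Il18 (ENSMUSG00000039217) chr9:50466081-50493633, both on the plus strand. Genes on the opposite strand overlap Casp1, Gsdmd, Pycard, Aim2 and Il18, and whether the counting used strand is not stated, so that reads of such partners cannot be told apart in these counts. For Aim2 the partners include the coding gene Cadm3, and for Il18 the coding genes Bco2 and Tex12.

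The window of 300 bases around the start of the canonical transcript (250 before it to 50 after it) was searched on both strands for 4 motifs in all 7 genes. The Casp4 promoter is shown because Casp4 had the largest difference of the 6 tested genes and was the only 1 of the 7 with a match to any of the motifs. The stretch is chr9:5308736-5308827 on the plus strand of GRCm39, 92 bases that cover positions -107 to -16 from the start, and the capitals mark the matches to the NF-kB consensus.
Casp4: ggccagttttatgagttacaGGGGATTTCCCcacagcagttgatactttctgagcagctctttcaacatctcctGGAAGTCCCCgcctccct
The first run of capitals holds 2 overlapping matches on the plus strand, at -87 to -78 and at -86 to -77, and the second holds a match on the minus strand at -33 to -24. Such a match is found in 9.99% of the 11214 promoters of tested protein-coding genes. The other motifs were an ISRE-like motif (GAAA, any 2 bases, GAAA, in 3.41% of promoters), a GAS-like motif (TTC, any 3 bases, GAA, in 7.36%) and the full palindrome of the glucocorticoid response element (AGAACA, any 3 bases, TGTTCT, in 0%), and none of the 7 windows held one. A match describes letters and not a site in use. The palindrome was in none of the 11214 promoters, so this search could not tell whether the 7 genes have glucocorticoid response elements.

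The libraries held 7286307 to 15832111 counts each. A count of 0 in a single library (limit of 3 counts) allows a level of up to 0.149 to 0.578 normalized CPM, the count relative to the library total after scaling by trimmed mean of M-values (TMM). The 10 Paneth cell markers summed to 418187 to 629857 CPM. Of 18 immune cell markers, 8 were at 0 in all libraries, among them the T cell genes Cd3e, Cd3g and Cd8a, and their summed level was 26.0 to 106 CPM. Lyz2 made up 93.0% of the immune marker counts, and it is a close relative of the Paneth cell gene Lyz1, so that its count depends on how shared reads were handled. Among the other immune markers Ptprc had the most counts, 687 over all libraries, followed by Cd68 (39) and Itgae (30). Sgk1, a glucocorticoid target, was at 17.6 to 115 normalized CPM in the libraries that received DEX and at 1.11 to 7.94 in the others. Of the 4 genes looked at for the DEX response, Sgk1 and Fkbp5 did not overlap between these libraries, and Per1 and Tsc22d3 did. Nfkbia, the NF-kB inhibitor that TNF induces, was at 277 to 337 in PBS+TNF and at 330 and 382 in DEX+TNF replicates 1 and 2, but at 28.3 and 41.0 in DEX+TNF replicates 3 and 4, against 15.6 to 27.3 in the libraries without TNF. For all 5 genes looked at for the TNF response, replicates 3 and 4 lay below every PBS+TNF library. Replicate 3 was above every library without TNF for 1 of the 5 and replicate 4 for 4 of them. Nos2, an NF-kB target, was at 20.2 normalized CPM in replicate 4, against at most 2.60 without TNF and 181 to 466 in PBS+TNF. These 2 libraries stand apart from their group, and values of the comparisons that use the group are given with and without them. The spread was estimated over all libraries, so these 2 also enter the SE and adjusted p of the other comparisons.

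In Paneth cells of PBS+PBS mice the transcripts of the members made up a small share of the counts. Most counts in these libraries came from a few abundant genes. In the wider pathway list, mean levels in PBS+PBS ran from 0 to 51.6 CPM per kilobase of canonical transcript, so that some of its genes were above every member. Per kilobase of canonical transcript, the mean level was 5.98 CPM ± 3.91 (SD, n = 4) for Pycard, 5.44 ± 4.24 for Casp1, 3.34 ± 1.26 for Nlrp6, 1.87 ± 0.185 for Casp4, 1.28 ± 1.27 for Gsdmd, 0.486 ± 0.330 for Aim2 and 0.233 ± 0.288 for Il18. Between neighbours in this order only the libraries of Nlrp6 and Casp4 did not overlap, from 2.48 to 5.19 against 1.72 to 2.11. The place of Pycard is uncertain, because its coding transcripts run from 493 to 4181 bases and the canonical one of 4122 bases was used. In PBS+TNF the order per kilobase was Casp4 (74.2 ± 40.1), Casp1 (15.8 ± 6.44), Gsdmd (10.6 ± 2.62), Pycard (3.30 ± 1.33), Aim2 (1.15 ± 0.366), Nlrp6 (1.06 ± 0.805) and Il18 (0.285 ± 0.204). There the libraries of Casp4 and Casp1, of Gsdmd and Pycard, and of Pycard and Aim2 did not overlap, the last by 1.71 against 1.69, and the other neighbours did. Casp4 stood below Nlrp6 in PBS+PBS and above all other members in PBS+TNF. The places rest on the length used, and the coding transcripts of Casp4 run from 361 to 3338 bases. Per kilobase of all exons, Casp4 was at 0.513 CPM in PBS+PBS, below Gsdmd at 0.842, and Nlrp6 at 2.92 was above Casp1 at 2.65. In PBS+TNF Casp4 was first on that scale too, at 20.4, before Casp1 at 7.72.

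**Figure D1:**
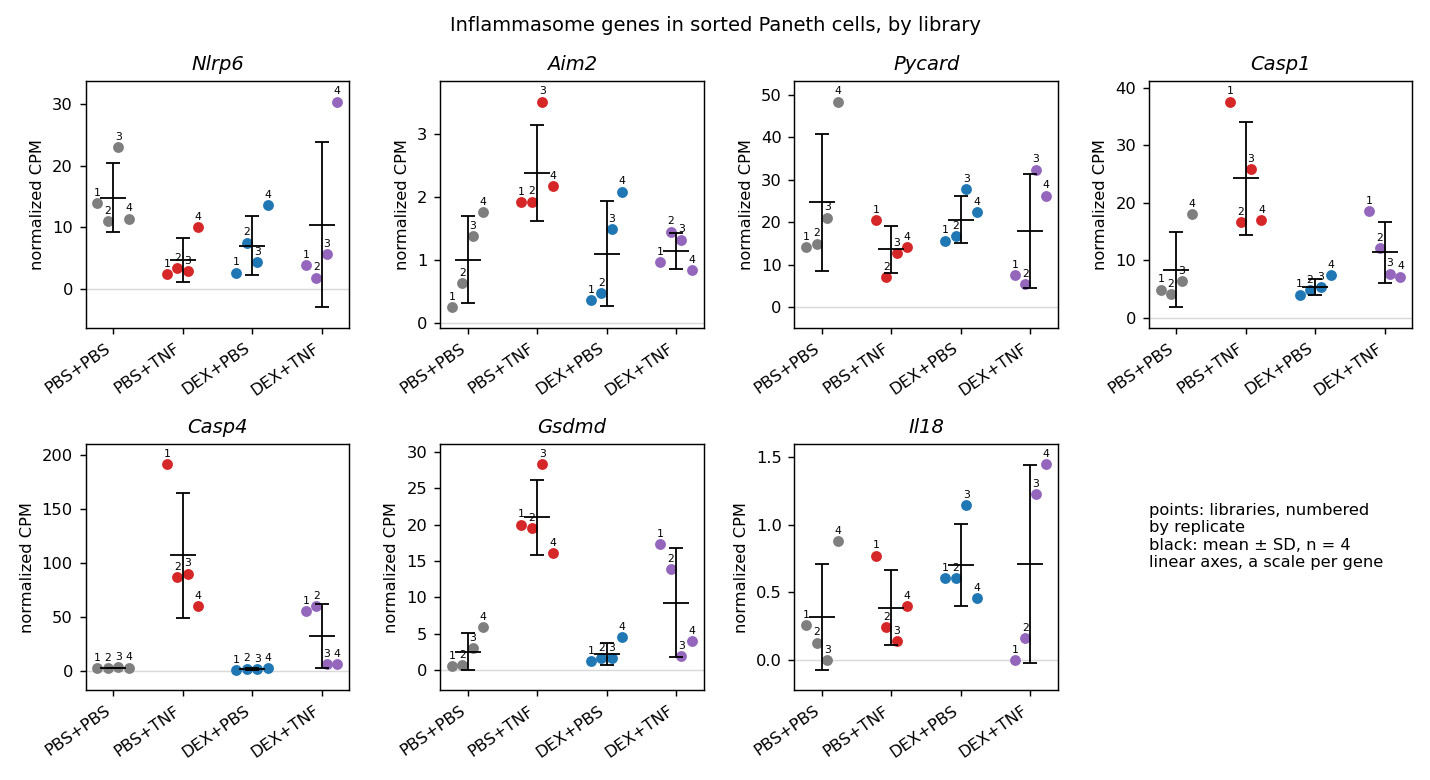
Normalized CPM (linear axes, a scale for each gene) of the 7 genes in the 16 libraries. Points are libraries numbered by replicate, and black marks give the mean and SD of the 4 libraries of a group. Casp4 and Gsdmd sit above PBS+PBS in all 4 PBS+TNF libraries, and DEX+TNF replicates 3 and 4 lie apart from replicates 1 and 2 for both genes.

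TNF was first compared with PBS in mice that had PBS as the first injection. The 3 genes called higher were both inflammatory caspases and the gasdermin they cut, and the sensors, the adaptor and Il18 were not called. In this comparison 12.5% of all tested genes were called at an adjusted p under 0.05 (7.15% higher and 5.35% lower), against 3 of the 6 tested members. Of the 1476 calls over all genes 57.2% were higher, a share that was 46.3% with upper-quartile scaling. That scaling moved the median of all genes from -0.03 to -0.15 on the log2 scale, and the 3 members stayed called higher under it. The median log2 fold change of the 6 members was 1.41, and 5 of them had an unadjusted p under 0.05 against 26.4% of all genes. The members were chosen with earlier results of these data known, so these shares do not test them as a set.

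Casp4 showed the largest difference of the members. It stood at 2.48, 2.49, 3.04 and 2.76 normalized CPM in PBS+PBS replicates 1 to 4 and at 191, 86.7, 89.9 and 59.7 in PBS+TNF. Every PBS+TNF library was above every PBS+PBS library, as in 10.8% of all tested genes. The group means were 2.695 ± 0.266 and 107 ± 57.8 normalized CPM (SD, n = 4), and the log2 fold change was 5.30 (SE 0.71, edgeR's quasi-likelihood test, Benjamini-Hochberg adjusted p = 0.000472). By p-value it ranked 22 of the 11809 genes. The highest of its libraries, PBS+TNF replicate 1, had the smallest scaling factor (0.418), and without that scaling its level was 79.8 CPM, below the 86.2 to 109 of the other PBS+TNF libraries. The call was kept in all 26 alternatives, with log2 fold changes from 4.85 to 5.51. With DEX+TNF replicates 3 and 4 left out of the estimate of the spread, the SE was 0.376.

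Gsdmd, the executor of pyroptosis, was at 0.514, 0.702, 2.99 and 5.90 normalized CPM in PBS+PBS and at 20.04, 19.6, 28.3 and 16.1 in PBS+TNF. Its groups did not overlap either. The spread was wide in PBS+PBS, where replicates 1 and 2 were below 1 CPM and replicate 4 was the highest. The means were 2.53 ± 2.52 and 21.0 ± 5.17 normalized CPM, and the log2 fold change was 3.11 (SE 0.71, adjusted p = 0.00915 in edgeR). The call was kept in all 26 alternatives, with adjusted p from 0.000132 to 0.0436.

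Casp1, the caspase of the canonical inflammasome, was at 4.88, 4.09, 6.35 and 17.96 normalized CPM in PBS+PBS and at 37.6, 16.6, 25.8 and 16.9 in PBS+TNF. The groups overlapped, since PBS+PBS replicate 4 was above PBS+TNF replicates 2 and 4. The means were 8.32 ± 6.50 and 24.2 ± 9.87 normalized CPM, and the log2 fold change was 1.55 (SE 0.44, adjusted p = 0.0279 in edgeR). PBS+PBS replicate 4 had a scaling factor of 0.503, and without scaling its Casp1 level was 9.03 CPM. The call was lost in 6 of 26 alternatives: with only the groups compared (adjusted p = 0.0578) and without PBS+PBS replicate 1, 2 or 3 (0.0905, 0.0884 and 0.0776) or PBS+TNF replicate 1 or 3 (0.0779 and 0.0618). Over all 26 the adjusted p ran from 0.00216 to 0.0905, and without PBS+PBS replicate 4 the log2 fold change was 2.21.

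The immune cell markers summed to 41.0 to 42.8 CPM in PBS+TNF and 41.5 to 106 in PBS+PBS, sums that were mostly Lyz2. Without Lyz2 the other 17 summed to 0.378 to 6.001 CPM in PBS+TNF and 0 to 1.68 in PBS+PBS, with overlap and a higher median in PBS+TNF (2.93 against 0.537). In DEX+TNF that sum ran from 0 to 34.6 CPM, and over all libraries its counts were mostly Ptprc. The part of immune cells in the levels of these 3 genes was not tested. The enterocyte markers summed to 43.8 to 152 CPM in PBS+TNF and 249 to 445 in PBS+PBS, and the stem, tuft and goblet marker sums overlapped between these groups. The part of these cells in the levels of Casp4, Gsdmd and Casp1 was not tested either.

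Aim2, the sensor of cytosolic DNA, was at 0.257, 0.638, 1.39 and 1.76 normalized CPM in PBS+PBS and at 1.93, 1.93, 3.52 and 2.18 in PBS+TNF. All PBS+TNF libraries were above all PBS+PBS libraries, but the levels rested on 53 and 136 counts per group. Without scaling the groups overlapped, since PBS+TNF replicate 1 was at 0.804 CPM and PBS+PBS replicate 3 at 1.82. The log2 fold change of 1.26 (SE 0.59, adjusted p = 0.180 in edgeR) was not called, and was called in none of its 25 alternatives.

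Nlrp6, a sensor of the intestinal epithelium, was at 13.9, 10.98, 23.0 and 11.4 normalized CPM in PBS+PBS and at 2.504, 3.38, 2.95 and 10.1 in PBS+TNF. On this scale all PBS+TNF libraries lay below all PBS+PBS libraries, as in 8.64% of tested genes. Without scaling the groups overlapped: PBS+TNF replicate 4 was at 14.5 CPM, and the PBS+PBS libraries at 14.4, 12.1, 30.1 and 5.75. The log2 fold change was -1.61 (SE 0.71, adjusted p = 0.1505 in edgeR) and was not called. It was called in 4 of 26 alternatives: with only the groups compared (adjusted p = 0.0367), with a replicate block (0.0234), without DEX+TNF replicate 4 (0.0437) and with DEX+TNF replicates 3 and 4 both left out (0.0390), in a range from 0.0234 to 0.367.

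Pycard was at 14.2, 14.9, 21.1 and 48.4 normalized CPM in PBS+PBS and at 20.4, 7.05, 12.7 and 14.2 in PBS+TNF. The groups overlapped, and the log2 fold change of -0.87 (SE 0.51, adjusted p = 0.310 in edgeR) was not called. The adaptor and the caspase it recruits thus had values of opposite sign, -0.87 and 1.55, and the difference between the 2 genes was not tested. Il18, the caspase-1 substrate, was close to the detection limit, with 3, 2, 0 and 7 counts in PBS+PBS and 4, 4, 2 and 8 in PBS+TNF. Its mean levels were 0.316 ± 0.390 and 0.387 ± 0.276 normalized CPM, and a difference was not detectable at this depth.

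**Figure D2:**
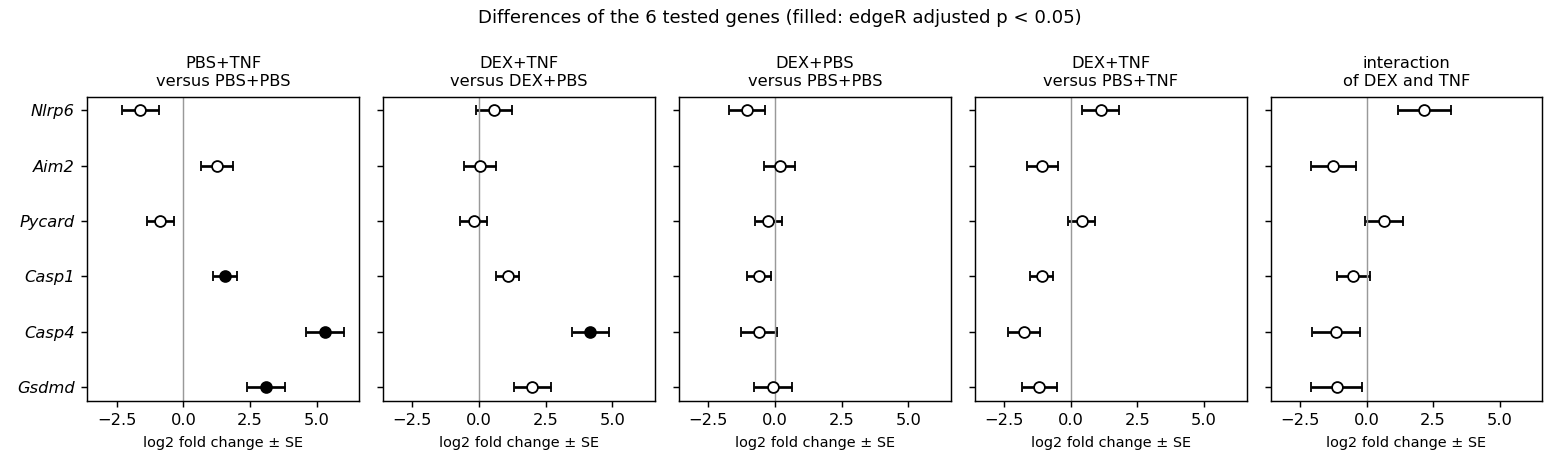
Log2 fold change with its SE for the 6 tested genes in the 5 comparisons, on the same horizontal scale. Filled points were called (edgeR adjusted p under 0.05): Casp4, Gsdmd and Casp1 for TNF after PBS, and Casp4 for TNF after DEX.

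The levels of Nlrp6 and Pycard followed marker genes of some other epithelial cells. The cells had been sorted by flow cytometry, a step that should remove such cells, and the methods of the study describe the sorted fraction as almost free of others. In each of the 4 groups, the library with the highest Nlrp6 level was also the one with the highest sum of the stem cell markers (Lgr5, Olfm4, Ascl2, Smoc2 and Axin2) and of the cycling cell markers. For the enterocyte and tuft cell markers this held in 3 of 4 groups, and for the goblet cell markers in 1 of 4. The goblet markers had the largest sum of these lists, 3211 to 11127 CPM. Their Pearson r over the 16 libraries, in unscaled log2 CPM, was 0.395 with Nlrp6 and 0.088 with Pycard. Over the 16 libraries, unscaled log2 CPM of Nlrp6 followed the stem marker sum with a Pearson r of 0.957 and the enterocyte sum with 0.793, a description over libraries that share treatment groups and depth. For Pycard the r was 0.687 with the stem sum and 0.801 with the tuft sum, whereas for Casp4, Gsdmd and Casp1 the r with the stem sum lay between -0.18 and 0.00. With the enterocyte sum the r was 0.715 for Pycard, and -0.706, -0.536 and -0.559 for Casp4, Gsdmd and Casp1. On the normalized scale Pycard was highest in PBS+PBS replicate 4, PBS+TNF replicate 1, DEX+PBS replicate 3 and DEX+TNF replicate 3. The unscaled stem sum was highest in none of these libraries, so for Pycard the match depends on the scale used. DEX+TNF replicate 4 had the highest sums of all libraries, 1886 CPM for stem, 857 for tuft and 1009 for enterocyte markers, and it also had the highest unscaled Nlrp6 and Pycard levels, 45.5 and 39.3 CPM. The enterocyte sum was lower in PBS+TNF than in PBS+PBS without overlap, whereas unscaled Nlrp6 overlapped between these groups. The part of these cells in the Nlrp6 and Pycard levels was not tested.

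**Figure D3:**
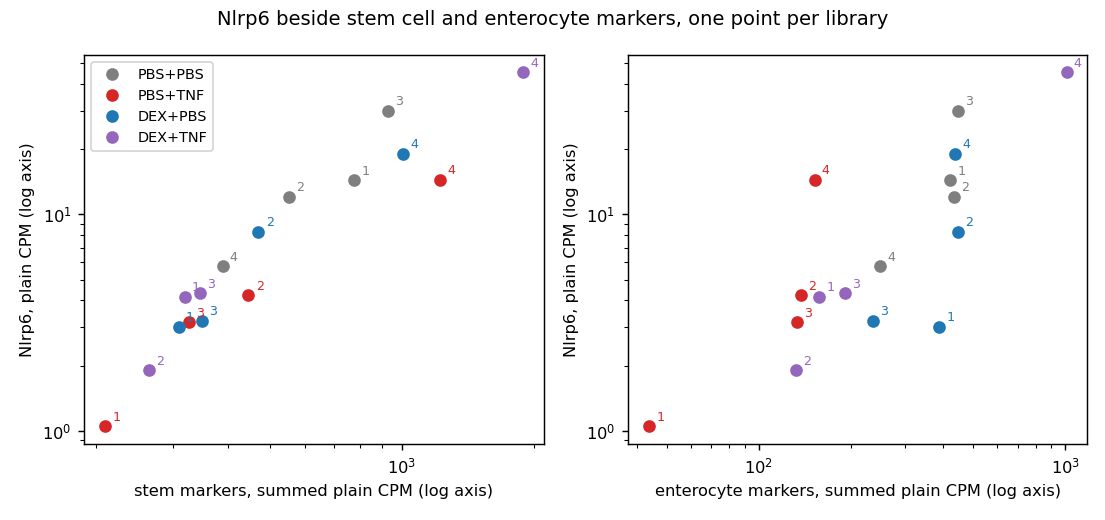
Unscaled CPM of Nlrp6 against the summed CPM of 5 stem cell markers (left) and 10 enterocyte markers (right), log axes, a point for each of the 16 libraries, numbered by replicate. Nlrp6 was highest in DEX+TNF replicate 4 at 45.5 CPM, which also had the highest sum of both lists.

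TNF was next compared with PBS after DEX, a comparison in which DEX+TNF replicates 3 and 4 decide much. Casp4 was the only member called, and 0.339% of all tested genes were called (0.322% higher and 0.0169% lower). At an unadjusted p under 0.05 there were 3 members and 10.4% of all genes. Casp4 was at 0.728, 1.93, 1.60 and 2.498 normalized CPM in DEX+PBS and at 55.1, 59.7, 6.43 and 5.98 in DEX+TNF. All DEX+TNF libraries were above all DEX+PBS libraries, as in 2.06% of tested genes (2.63% lay all lower), including replicates 3 and 4, in which Nfkbia stood at 28.3 and 41.0. The log2 fold change was 4.17 (SE 0.69, adjusted p = 0.0456 in edgeR). The call was lost in 17 of 26 alternatives, over which the adjusted p ran from 4e-08 to 0.407, while the log2 fold change stayed between 3.67 and 5.01. It was lost with no low-count filter (0.103), with only the groups compared (0.407), with the replicate block (0.117) and without any single PBS+PBS, PBS+TNF or DEX+PBS library or DEX+TNF replicate 1 or 2 (0.0531 to 0.183).

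Gsdmd was at 1.21, 1.63, 1.60 and 4.54 normalized CPM in DEX+PBS and at 17.3, 13.9, 1.94 and 3.99 in DEX+TNF. Casp1 was at 4.01, 4.82, 5.27 and 7.39 in DEX+PBS and at 18.5, 12.1, 7.66 and 7.13 in DEX+TNF. For both genes DEX+TNF replicates 1 and 2 were above every DEX+PBS library, while replicate 4 was not. Replicate 3 was within the DEX+PBS range for Gsdmd, and for Casp1 it was above it by 7.66 against 7.39. The log2 fold changes were 1.99 (SE 0.69, adjusted p = 0.256 in edgeR) for Gsdmd and 1.06 (SE 0.44, adjusted p = 0.379 in edgeR) for Casp1, and neither was called.

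Pycard went the other way in the same libraries. It was at 15.7, 16.7, 27.7 and 22.3 normalized CPM in DEX+PBS and at 7.58, 5.42, 32.4 and 26.2 in DEX+TNF, so that replicates 1 and 2 lay below every DEX+PBS library and replicate 3 above all of them on this scale. Without scaling replicate 3 was at 24.4 CPM, below DEX+PBS replicate 4 at 31.3. Over all 4 its log2 fold change was -0.20 (adjusted p = 0.980 in edgeR). Nlrp6 was at 2.67, 7.54, 4.35 and 13.6 in DEX+PBS and at 3.87, 1.86, 5.72 and 30.4 in DEX+TNF, and its value of 0.56 (adjusted p = 0.904) rested on replicate 4, without which it was -0.91. Aim2 was at 0.364, 0.482, 1.49 and 2.09 in DEX+PBS and at 0.968, 1.46, 1.33 and 0.848 in DEX+TNF, a log2 fold change of 0.02. Il18 had 5, 10, 10 and 9 counts in DEX+PBS and 0, 2, 12 and 29 in DEX+TNF, where 41 of the 43 counts came from replicates 3 and 4.

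With DEX+TNF replicates 3 and 4 both left out, 3 members were called for TNF after DEX. Casp4 (log2 fold change 5.01) and Gsdmd (2.73, adjusted p = 0.0130 in edgeR) were higher, and Pycard (-1.66, adjusted p = 0.0472) was lower. Casp1 had 1.495 (adjusted p = 0.0621), Nlrp6 -1.33 (0.236) and Aim2 0.10 (0.948), and these were not called. The number of genes called over the whole table was then 1286 in place of 40. The 2 libraries were set apart by their TNF response genes, which rise with Casp4 and Gsdmd, so these counts describe the other 2 libraries and do not test the effect of TNF independently.

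**Figure D4:**
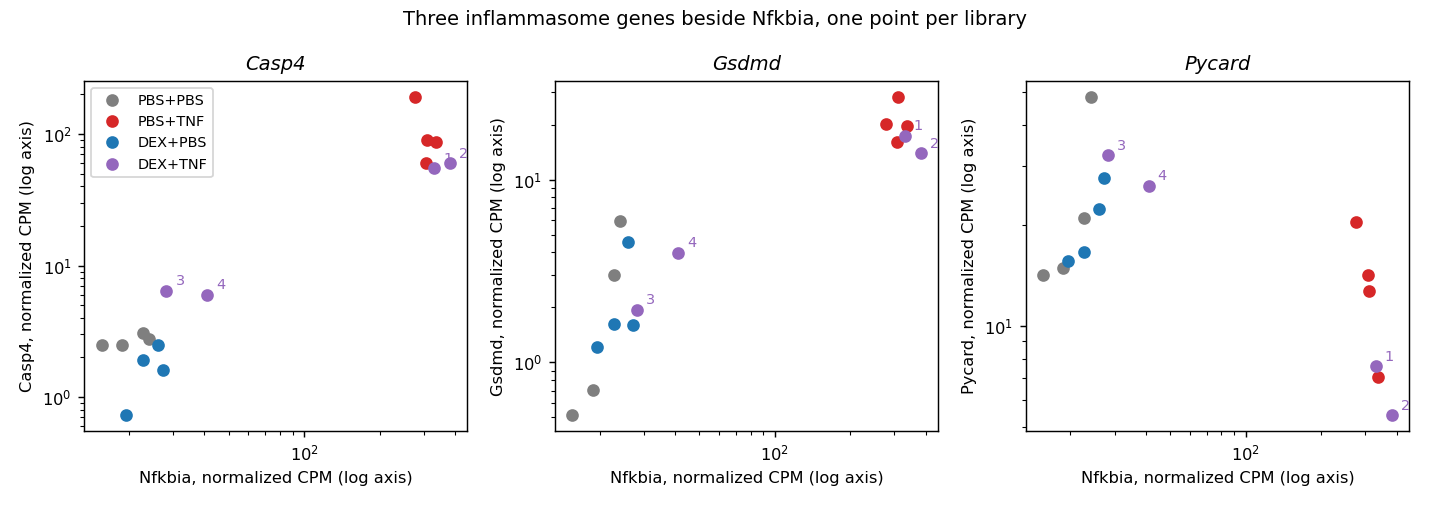
Normalized CPM of Casp4, Gsdmd and Pycard against Nfkbia (log axes), a point for each library, with the DEX+TNF libraries numbered by replicate. DEX+TNF replicates 1 and 2 lie at the Nfkbia level of PBS+TNF (277 to 337 and above), and replicates 3 and 4, at 28.3 and 41.0, just above the highest library without TNF at 27.3. Casp4 in these 2 libraries, 6.43 and 5.98, is still above all libraries without TNF.

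DEX alone was compared with PBS in mice without TNF. No member was called and none had an unadjusted p under 0.05, and DESeq2 called none of them either, in a comparison in which 0.00847% of all tested genes were called (1 gene by edgeR and 7, or 0.0594%, by DESeq2) and 1.9% had an unadjusted p under 0.05. The groups overlapped for all 6 tested members, while 0.999% of all tested genes lay higher and 0.881% lower without overlap. Log2 fold changes were -1.05 (SE 0.69) for Nlrp6, -0.61 (SE 0.68) for Casp4, -0.59 (SE 0.44) for Casp1, -0.25 (SE 0.51) for Pycard, -0.06 (SE 0.71) for Gsdmd and 0.17 (SE 0.59) for Aim2, each with an edgeR adjusted p of 1. Casp1, Gsdmd and Pycard turned positive without PBS+PBS replicate 4 (0.074, 0.67 and 0.29), and Aim2 turned negative without DEX+PBS replicate 4 (-0.38). Gsdmd also turned positive without PBS+PBS replicate 3 or DEX+PBS replicate 1, 2 or 3. Aim2 also turned negative without PBS+PBS replicate 1 or 2. Il18 had 12 counts in PBS+PBS and 34 in DEX+PBS, and was not tested.

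DEX was then compared with PBS in mice that received TNF, which asks whether the first injection changed the level reached after TNF. This comparison shares the PBS+TNF libraries with the first and the DEX+TNF libraries with the second. No member was called, against 0.339% of all tested genes (0.22% higher and 0.119% lower), 2 members had an unadjusted p under 0.05 (11.9% of all genes did), and DESeq2 called none. Casp4, Casp1, Gsdmd and Aim2, whose means were higher in PBS+TNF than in PBS+PBS, each had a lower mean in DEX+TNF than in PBS+TNF. Casp4 averaged 31.8 ± 29.6 normalized CPM in DEX+TNF and 107 ± 57.8 in PBS+TNF, a log2 fold change of -1.74 (SE 0.60, adjusted p = 0.226 in edgeR). Casp1 averaged 11.3 ± 5.25 and 24.2 ± 9.87 (-1.08, SE 0.43, adjusted p = 0.321), and Gsdmd 9.29 ± 7.49 and 21.0 ± 5.17 (-1.18, SE 0.65, adjusted p = 0.505). Aim2 averaged 1.15 ± 0.288 and 2.39 ± 0.761 (-1.07, SE 0.58, adjusted p = 0.499), and was the only member with every DEX+TNF library below every PBS+TNF library, as in 2.91% of tested genes (3.47% lay all higher). Without scaling these groups overlapped, since PBS+TNF replicate 1 was at 0.804 CPM and DEX+TNF replicate 2 at 1.48.

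Without DEX+TNF replicates 3 and 4 these differences were smaller for the caspases and the gasdermin. The log2 fold changes became -0.89 for Casp4, -0.64 for Casp1 and -0.42 for Gsdmd. That of Aim2 was -0.98. Those of Pycard and Nlrp6 turned sign, from 0.41 to -1.04 for Pycard and from 1.12 to -0.77 for Nlrp6. None of the 6 was called without the 2 libraries. The median over the 6 tested members was -1.07 with all libraries, against 0.03 over all tested genes.

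The interaction, the TNF effect after DEX minus that after PBS, was not called for any member, nor for any of the 11809 genes by edgeR (0%; 9 genes, or 0.0763%, and no member by DESeq2). One member, Nlrp6, had an unadjusted p under 0.05, as did 5.44% of all genes. Its interaction was 2.17 (SE 0.98, adjusted p = 0.884 in edgeR) on the log2 scale. For Casp4 the value was -1.13 (SE 0.90), for Gsdmd -1.12 (SE 0.96), for Aim2 -1.24 (SE 0.83), for Casp1 -0.49 (SE 0.62) and for Pycard 0.66 (SE 0.72). Without DEX+TNF replicates 3 and 4 the interaction was 0.28 for Nlrp6, -0.28 for Casp4, -0.40 for Gsdmd, -1.17 for Aim2, -0.066 for Casp1 and -0.79 for Pycard, with adjusted p from 0.972 to 0.997. The effect of TNF was thus not shown to differ between PBS and DEX mice for any of these genes.

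Across the 16 libraries the members fell into pairs that moved together and pairs that did not. Casp1 and Gsdmd had a Pearson r of 0.917 in log2 CPM, and 0.817 once the group means were taken out. Casp4 and Gsdmd had 0.892 (0.667 within groups) and Casp1 and Casp4, neighbours on chromosome 9, 0.875 (0.610 within groups). Pycard had -0.54 with Casp4 (-0.54 within groups) and -0.19 with Casp1, which was 0.196 within groups. Nlrp6 had -0.50 with Casp4 (-0.49 within groups), -0.43 with Gsdmd (-0.14) and -0.41 with Casp1 (-0.27). The tested genes most like Casp4 were Snx10 and Neurl3 (both r = 0.985), and those most like Casp1 were Psmb10, an immunoproteasome subunit (0.964), and Nmi (0.961). Gsdmd was most like Psmb10 as well (0.948) and Rgs16 (0.947). Pycard was most like Csrp2 (0.974) and Rab17 (0.960), Nlrp6 like Plbd1 (0.911) and Ttc3 (0.895), and Aim2 like 1110038B12Rik (0.911) and Gtpbp6 (0.878). All of these are descriptions over libraries that share 4 treatment groups.

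Casp6, an executioner caspase of apoptosis, was at 24.1 to 45.0 normalized CPM in PBS+PBS and at 25.2 to 28.7 in PBS+TNF. The groups overlapped, and the log2 fold change of -0.26 (SE 0.29, adjusted p = 0.641 in edgeR) was not called. The DEX+PBS libraries held 16.1 to 34.4 normalized CPM and the DEX+TNF libraries 15.2 to 38.3. Casp6 was called in none of the 5 comparisons and in none of their alternatives.

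In the wider pathway list, 15 of the 38 tested genes were called higher after TNF alone and 1 lower, beside 7.15% and 5.35% of all tested genes. The list's median log2 fold change was 0.59, against -0.03 over all genes. The list was chosen with earlier results of these data known, so these shares do not test it as a set. None of the 38 was called by edgeR in the other 4 comparisons. An unadjusted p under 0.05 was reached by 3 of them for DEX without TNF (1.9% of all genes), by 15 for DEX with TNF (11.9%), by 9 for TNF after DEX (10.4%) and by 4 for the interaction (5.44%). DESeq2 called 4 of them for TNF after DEX, beside 2.2% of all genes, and 1 for DEX with TNF, beside 2.32%.

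In the group of initiator and other caspases, which also holds the scaffold Apaf1 and an adaptor, 3 of 5 tested genes were called higher. Of the gasdermins 1 of 5 was called higher and 1 lower. Casp8, which starts death-receptor apoptosis and can cut gasdermin D, rose by 1.12 on the log2 scale (adjusted p = 0.00322 in edgeR), Apaf1, the apoptosome scaffold, by 2.68 (0.00218) and Casp2 by 0.79 (0.0448). Gsdma2, another gasdermin, rose by 1.38 (adjusted p = 0.00517), and its count is uncertain, since it depends on how reads shared with its close relatives Gsdma and Gsdma3 were handled. Gsdme, a gasdermin cut during apoptosis, was the gene called lower, from 3.32 to 13.7 normalized CPM in PBS+PBS to 0.844 to 1.39 in PBS+TNF (log2 fold change -2.34, SE 0.72, adjusted p = 0.0418). Ninj1, which ruptures the membrane after pore formation, rose by 1.18 (adjusted p = 0.0137).

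On the side of the cytokine, Il18bp, the secreted decoy that binds IL-18, was called while Il18 itself was barely counted. Il18bp was at 0.628 to 2.30 normalized CPM in PBS+PBS and 7.13 to 9.65 in PBS+TNF (log2 fold change 2.43, SE 0.38, adjusted p = 0.00116 in edgeR). The DEX+PBS libraries held 2.18 to 3.01 and the DEX+TNF libraries 2.19 to 6.39. Its DEX difference after TNF was -1.16 (SE 0.36, adjusted p = 0.187) and was not called. Il1a, Il1b and Il36g had no count in any library, which allows a level of up to 0.0145 CPM over all libraries together. Il1rn, the interleukin 1 receptor antagonist, named after its values were seen, had 4 counts in PBS+PBS, 73 in PBS+TNF, 4 in DEX+PBS and 16 in DEX+TNF and was too low to be tested.

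Of the regulators and inhibitors 5 of 10 tested genes were called higher, and none lower. Ripk3 (log2 fold change 1.49, adjusted p = 0.00735 in edgeR) and Mlkl (2.47, 0.0113), which carry out necroptosis, and Zbp1 (1.62, 0.0184), a nucleic acid sensor upstream of them, were called higher. So were Birc3 (4.41, 0.00172), the inhibitor of apoptosis that NF-kB induces, and the serpins Serpinb1a (1.19, 0.0327) and Serpinb9 (1.24, 0.0255), of which Serpinb1a restrains inflammatory caspases. The transcription factors Irf1 (2.24, 0.00203), Irf9 (1.23, 0.00292) and Stat2 (1.54, 0.00773), which act on interferon-responsive genes, were higher as well.

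**Figure D5:**
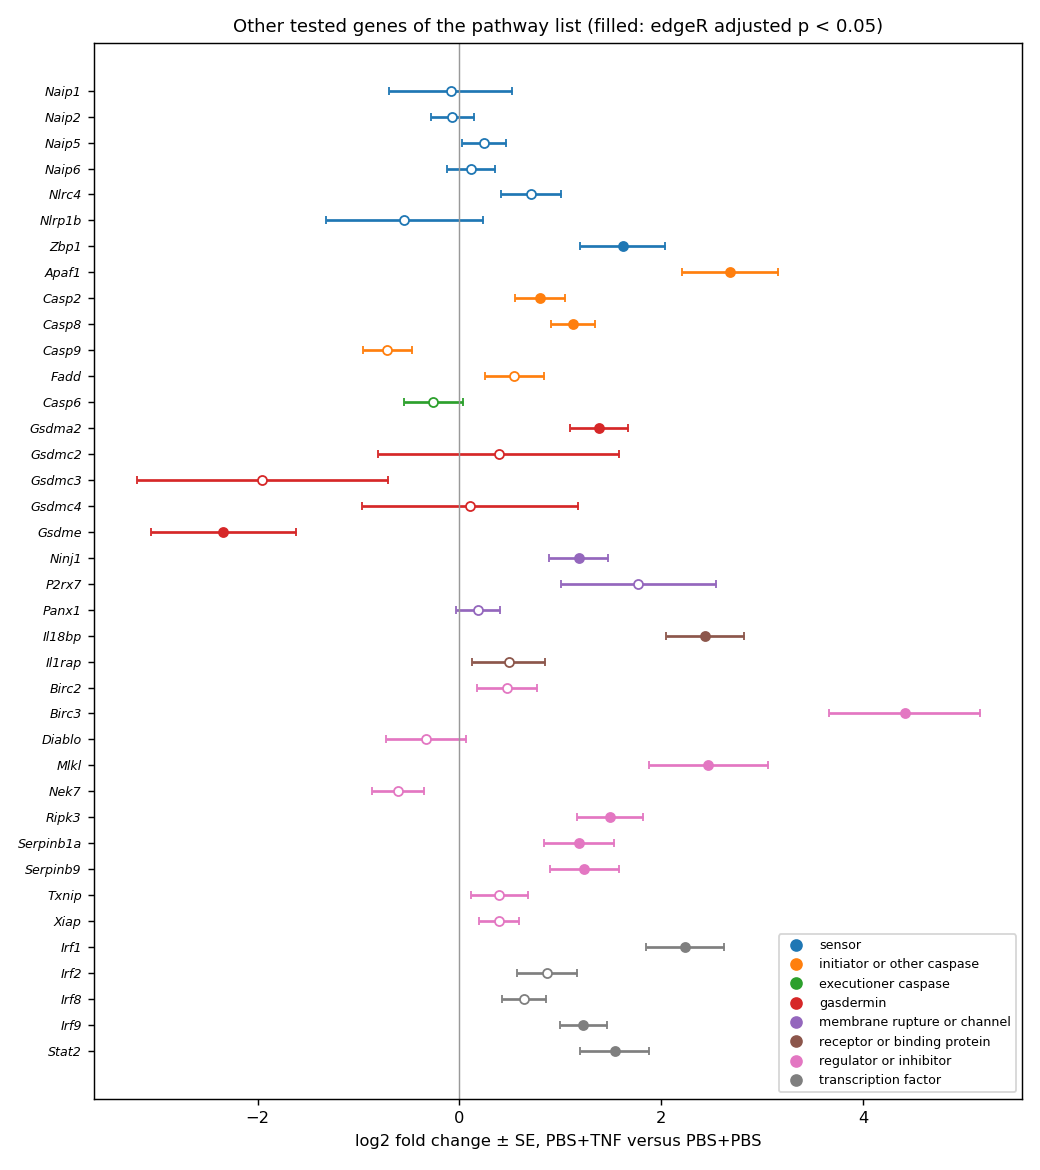
Log2 fold change with its SE, PBS+TNF versus PBS+PBS, for the 38 tested genes of the wider pathway list, coloured by role. Filled points were called (edgeR adjusted p under 0.05), 15 higher and 1, Gsdme, lower.

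Of the 13 other sensors 7 were tested, and Zbp1 was the only 1 called. The sensors below were named after their values were seen. Nlrc4, which assembles an inflammasome on NAIP proteins bound to bacterial flagellin or secretion proteins, was at 54.0 to 75.2 normalized CPM in PBS+PBS and 74.5 to 120 in PBS+TNF (log2 fold change 0.71, SE 0.30, adjusted p = 0.130 in edgeR), and was not called. Naip2 was at 40.3 to 55.0 and 41.8 to 60.8, and the Naip genes are close copies whose counts depend on how shared reads were handled. Nlrp3, Nlrp1a, Nlrp12 and Mefv, sensors known from myeloid cells, had no count in any library, nor did the 5 relatives of Aim2 in the list (Ifi202b, Ifi203, Ifi204, Ifi207 and Mndal).

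Of the 16 pathway calls, 5 were lost when single libraries were left out. Casp2 was called in 12 of 26 alternatives (adjusted p from 0.0153 to 0.104), and lost its call without any PBS+PBS library, without PBS+TNF replicate 1, 2 or 4 and without DEX+PBS replicate 1, 2 or 4. Gsdme was called in 14 of 25 (0.00346 to 0.138), and lost its call without PBS+PBS replicate 1, 2 or 4, any PBS+TNF library or DEX+PBS replicate 2, 3 or 4. Serpinb1a was called in 19 of 26 (0.00356 to 0.104), and lost its call without PBS+PBS replicate 1, 2 or 3 or PBS+TNF replicate 1 or 3. Serpinb9 was called in 21 of 26 (0.00496 to 0.0857), and lost its call without PBS+PBS replicate 1, 2 or 3 or PBS+TNF replicate 2 or 3. Zbp1 was called in 25 of 26, and had an adjusted p of 0.0607 without PBS+PBS replicate 2.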

How the data were processed

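The authors deposited a table of raw read counts for 55414 Ensembl genes in 16 libraries of 4 groups. The labels give a stranded mRNA kit for the libraries. The submitters' processing notes name FastQC 0.12, STAR 2.7.10a, DESeq2 and the mm39 assembly. The counting program, the use of strand and the handling of reads that match several genes are not given in the sources used here. Totals ran from 7286307 to 15832111 counts, and limits for counts of 0 (3 counts) cover counting error only.

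GENCODE M39 on GRCm39 gave names to 54749 of the identifiers; the 665 others held 0.00519% of counts. Genes were kept with filterByExpr, scaled with TMM factors (0.418 to 1.50) and tested by quasi-likelihood in edgeR 4.0.16 (R 4.3.3, robust, a mean per group, all 16 libraries) in 5 contrasts, adjusted by Benjamini-Hochberg over the 11809 tested genes. The SE is the size of the log2 fold change divided by the square root of F. Log2 CPM for correlations used a prior count of 2. The script was tested on simulated data. Alternatives included DESeq2 1.42.0, other scalings and filters, a replicate block and leaving out libraries.

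The members and gene lists were chosen with earlier results of these data known. Text names all 7 members, Casp6, pathway genes called in a contrast, Nfkbia, Sgk1 and the 2 genes most like each member. The other response check genes, and the immune sum without Lyz2, were added after their values were seen. Some genes of the pathway list are not reported here and are left out of its counts. Marker sums are unscaled CPM. Promoters came from the GRCm39 genome at GENCODE M39 canonical starts. P-values measure the spread between these libraries, which the labels call biological replicates. Pairs of libraries within groups differed by more than sampling noise.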

Additional observations from a re-analysis of the deposited data

Results flagged for a closer look

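In 5 of 32 sets of 4 libraries looked at (8 genes in 4 groups), the highest library stood far from the other 3 by Dixon's criterion. Both the highest and the lowest library were looked at. For normally distributed values chance alone meets the criterion, at either end, in about 1 of 20 sets. The values here were CPM without a log, so that rate is only a guide. Casp1 was at 17.96 normalized CPM in PBS+PBS replicate 4, where the next library was at 6.35. Gsdmd was at 4.54 in DEX+PBS replicate 4 (next 1.63), and Aim2 at 3.52 in PBS+TNF replicate 3 (next 2.18). Nlrp6 was flagged in 2 groups, at 10.1 in PBS+TNF replicate 4 (next 3.38) and at 30.4 in DEX+TNF replicate 4 (next 5.72), and both were the libraries of their group with the highest sum of stem cell markers, 1222 and 1886 CPM. The part of those cells was not tested.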

How the results depend on the processing

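Up to 26 alternatives to the analysis were run for each result. Of 1311 values for single genes, 1214 kept their direction and their side of the threshold, 61 were no longer called, 6 became called and 30 changed sign. The calls of Casp4 and Gsdmd for TNF after PBS held in all 26, and that of Casp1 in 20. The cause of the changes below was not tested.

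With DESeq2, 7 genes were called for DEX without TNF, 274 for DEX with TNF (1 of the pathway list), 259 for TNF after DEX (4 of the list) and 9 for the interaction. With only the groups compared, 0 genes were called for DEX with TNF and 0 for TNF after DEX, with 0 members. With no low-count filter, 6 genes and 0 members were called for TNF after DEX. With DEX+TNF replicates 3 and 4 both left out, 12223 genes were tested, and 2166 were called for TNF after PBS in place of 1476. For DEX without TNF 2 genes were called, for DEX with TNF 0, and for TNF after DEX 1286, with 3 members and 11 genes of the list. Without these 2 libraries the sign turned for DEX with TNF in Pycard (-1.04) and Nlrp6 (-0.77), for TNF after DEX in Nlrp6 (-1.33), and for the interaction in Pycard (-0.79) and Casp6 (-0.34). Upper-quartile scaling turned Aim2 for TNF after DEX (-0.046).

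With a replicate block, 16 genes were called for DEX with TNF and 0 for TNF after DEX, with 0 members. Whether the numbers pair the libraries was not settled. Deviations from the group means correlated at -0.01, 0.28, 0.01 and 0.13 on average for numbers 1 to 4, against -0.03 between different numbers. For number 2 the pairs ran from 0.15 to 0.41. Among pairs with the same number 12 were under 0.1, and 7 of 16 libraries correlated best with their own number. Under the block Casp4 lost its call for TNF after DEX (adjusted p = 0.117), Nlrp6 gained one for TNF after PBS (0.0234) and Casp2 lost its call (0.0579), and no other named gene changed its call.

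With single libraries left out, the number of genes called ran from 916 to 1698 for TNF after PBS, 0 to 2 for DEX without TNF, 0 to 102 for DEX with TNF, 0 to 362 for TNF after DEX (0 to 1 members, 0 to 5 of the list) and 0 to 1 for the interaction. Log2 fold changes that changed sign ran, for DEX without TNF, from -0.83 to 0.074 (Casp1), -0.70 to 0.67 (Gsdmd), -0.44 to 0.29 (Pycard) and -0.38 to 0.52 (Aim2). For DEX with TNF they ran from -0.026 to 0.71 (Pycard) and -0.35 to 1.82 (Nlrp6). For TNF after DEX they ran from -0.64 to 0.10 (Pycard), -0.91 to 1.10 (Nlrp6), -0.24 to 0.58 (Aim2) and -0.45 to 0.12 (Casp6), and for the interaction from -0.19 to 0.38 (Casp6).

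Depth limited Il18 (0 to 29 counts in a library) and Aim2 (53 to 136 counts in a group). The comparisons that use DEX+TNF, the interaction among them, were limited by 4 libraries a group, of which 2 in DEX+TNF stood apart. Through the shared estimate of the spread these 2 libraries also entered the other comparisons.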
